A study of Mus musculus with 16 samples.

Results

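Interleukin-33 (IL-33) was given to medium-grown cells of RAW264.7, a macrophage-like line established from a mouse tumour, and microRNAs (miRNAs) were measured 4 h later. The comparison uses 8 of the 16 arrays of the series, chosen by their titles, while the tests estimate the spread from all 16. Cells of both groups were kept for 48 h in complete medium with 10% serum, then washed, and RNA was taken 4 h later. The 4 arrays called Media hold cells given no cytokine in those 4 h, and the 4 called Media_IL33 hold cells given recombinant mouse IL-33 at 20 ng/ml. Neither group received IL-4 or IL-13, the Th2 cytokines that the other 8 arrays share. Each group has 1 array from each of 4 independent experiments, and the experiments are numbered 1 to 4 here as in the labels. All cells come from 1 transformed line, so the arrays describe repeat cultures of that line, not animals. In such bulk RNA, fewer cells carrying a miRNA and less of it per cell cannot be told apart.

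IL-33 is a cytokine of the IL-1 family that is released by damaged barrier cells. It binds the receptor ST2, which signals through the adaptor MyD88, the IRAK kinases and TRAF6 to NF-kB and the MAP kinases. Macrophages that receive such signals are known to transcribe a small set of miRNA genes, among them those of miR-155, miR-146a and miR-21. Each miRNA hairpin yields a 5p and a 3p strand, one of which is usually retained as the guide that represses messenger RNAs through its seed, bases 2 to 8 from the 5′ end.

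The miRNAs on which the results turn are shown here from RefSeq (mouse build GRCm38.p6), 5′ to 3′, with the seed in capitals. The first 5 are the called miRNAs and the partner strand of one of them, and the last is the tested 3p strand of the miR-222 hairpin.
miR-21a-3p: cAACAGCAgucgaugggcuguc
miR-21a-5p: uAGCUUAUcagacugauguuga
miR-146a-5p: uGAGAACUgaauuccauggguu
miR-146b-5p: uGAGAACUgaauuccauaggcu
miR-155-5p: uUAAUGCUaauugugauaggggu
miR-222-3p: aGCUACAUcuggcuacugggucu

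Both strands of miR-21a come from the minus strand of chromosome 11, the 3p strand at chr11:86584082-86584103 and the 5p strand at chr11:86584120-86584141, within the gene Vmp1. The miR-146a-5p sequence lies on the same chromosome at chr11:43374435-43374456, minus strand, and miR-146b-5p at chr19:46342790-46342811, plus strand, within Gm36493. These 2 share the seed GAGAACU and are identical at 20 of 22 bases. They differ by G18A and U21C, with positions counted from 1 at the 5′ end of miR-146a-5p. The miR-155-5p sequence lies at chr16:84714143-84714165, plus strand, within its host transcript Mir155hg, and miR-222-3p at chrX:19146901-19146923, minus strand. The 92-base Mir21a hairpin is shown with both strands in capitals, the 5p strand first, because the ratio of its strands was called as changed in the main fit.
Mir21a hairpin: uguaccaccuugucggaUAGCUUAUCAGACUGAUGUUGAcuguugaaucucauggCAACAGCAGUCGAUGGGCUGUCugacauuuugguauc

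Values are relative signals: the summed background-subtracted intensity of the probes of a miRNA divided by the array's 75th percentile over miRNAs detected on all arrays, which makes 1 the signal of a miRNA at the percentile itself. Values under 0.0353 were set to that floor. Of 1247 miRNAs on the array, 231 were detected on all 4 arrays of at least 1 of the 4 groups of the series and were tested. On the 8 medium arrays 206 to 252 miRNAs were detected per array, 184 on all 8 and 933 on none. No spot was saturated. The arrays cannot rank different miRNAs by abundance, since probes differ in brightness, so each miRNA is compared only with itself.

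Exposure to IL-33 for 4 h raised a small group of miRNAs. Higher relative signals were found for 4 of the 231 tested miRNAs and lower signals for 0 (limma, Benjamini-Hochberg adjusted p under 0.05), which is 1.73% of those tested. The 4 are miR-21a-3p, miR-146a-5p, miR-155-5p and miR-146b-5p. All were on a list of miRNAs known to respond to Toll-like receptor, IL-1 receptor or NF-kB signals, chosen with earlier results of these data known. At an unadjusted p under 0.05 the count was 14 (6.06%). The 4 arrays of one group lay wholly above the 4 of the other for 5 miRNAs (2.16%), all higher with IL-33: the 4 called and miR-222-5p. Of the tested miRNAs, 21 were detected on all 4 Media_IL33 arrays but on only 2 Media arrays, and 20 more on only 3. None was detected on all 4 Media arrays and on fewer stimulated ones. The filter treated all groups alike, and miRNAs with missing Media detections entered the test through other groups. The cause of the unequal detection was not tested. When only miRNAs detected on all 16 arrays were tested, miR-146a-5p alone passed. These fits took the spread from all 16 arrays. In a fit on the 8 medium arrays alone, miR-21a-3p and miR-146a-5p (limma adjusted p = 0.0133 for each) and miR-155-5p (0.0258) passed. There miR-146b-5p did not pass (limma adjusted p = 0.124).

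miR-21a-3p, the 3p strand of a hairpin better known for its 5p guide, had the smallest adjusted p of all tested miRNAs. In Media its relative signal was 0.0602, 0.0460, 0.0353 and 0.0832 in experiments 1 to 4, and with IL-33 it was 0.168, 0.213, 0.196 and 0.246. Every stimulated array was above every Media array. The mean went from 0.0562 ± 0.0207 to 0.206 ± 0.0327 (SD, n = 4 each), a log2 difference of 1.93 ± 0.24 (SE, limma adjusted p = 0.000252). Without overlap of the groups it was necessarily higher in 4 of 4 experiments. Only 2 of the 4 Media arrays had the miRNA well above background, and the fold of 3.82 becomes 3.23 once each dim array is set to the dimmest signal it could measure above background. Its 15-base probe GACAGCCCATCGACT, in which capitals mark bases that pair with the miRNA, was 3.43-fold brighter, going from 0.0331 ± 0.0130 to 0.113 ± 0.0147 (SD, n = 4 each).

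miR-146a-5p is a feedback repressor of TRAF6 and IRAK1, signalling proteins of the IL-1 and Toll-like receptor pathways. Its relative signal was 0.254, 0.261, 0.188 and 0.220 in Media and 0.452, 0.454, 0.569 and 0.461 with IL-33. The groups did not overlap, and this was the only called miRNA that was well above background on all 8 arrays. The mean rose from 0.231 ± 0.0336 to 0.484 ± 0.0568 (SD, n = 4 each), a log2 difference of 1.08 ± 0.16 (SE, limma adjusted p = 0.000804) or 2.11-fold.

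miR-155-5p is made from the Mir155hg transcript and is known to repress the signalling inhibitors SHIP1 and SOCS1. In Media it was at the floor of 0.0353 in experiments 1 and 3, at 0.0364 in experiment 2 and at 0.0581 in experiment 4. With IL-33 it reached 0.0798, 0.0850, 0.0952 and 0.105. All stimulated arrays were above all Media arrays, of which 1 was well above background. The mean rose from 0.0413 ± 0.0113 to 0.0913 ± 0.0112 (SD, n = 4 each). The log2 difference was 1.17 ± 0.19 (SE, limma adjusted p = 0.00190), and the fold of 2.25 falls to 1.59 with dim arrays set in that way. The opposite strand, miR-155-3p, was detected on 0 of the 8 arrays.

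miR-146b-5p, the near-identical relative of miR-146a-5p from another chromosome, had the weakest support of the 4. It measured 0.0588, 0.0450, 0.0353 and 0.0591 in Media and 0.0972, 0.102, 0.106 and 0.0720 with IL-33. The groups did not overlap, but the log2 difference in experiment 4 was 0.29 against 0.73 to 1.59 in the others. The mean rose from 0.0495 ± 0.0116 to 0.0944 ± 0.0154 (SD, n = 4 each). The log2 difference was 0.95 ± 0.22 (SE, limma adjusted p = 0.0319), with 2 of 4 Media arrays well above background. The fold of 1.93 falls to 1.62 by the same treatment of dim arrays. The signal came from the longer of its probes, AGCCTATGGAATTCAGTTC, which differs from the matching miR-146a-5p probe AACCCATGGAATTCAGTTC where the miRNAs differ. Hybridisation of each miRNA to the probes of the other was not tested.

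**Figure D1:**
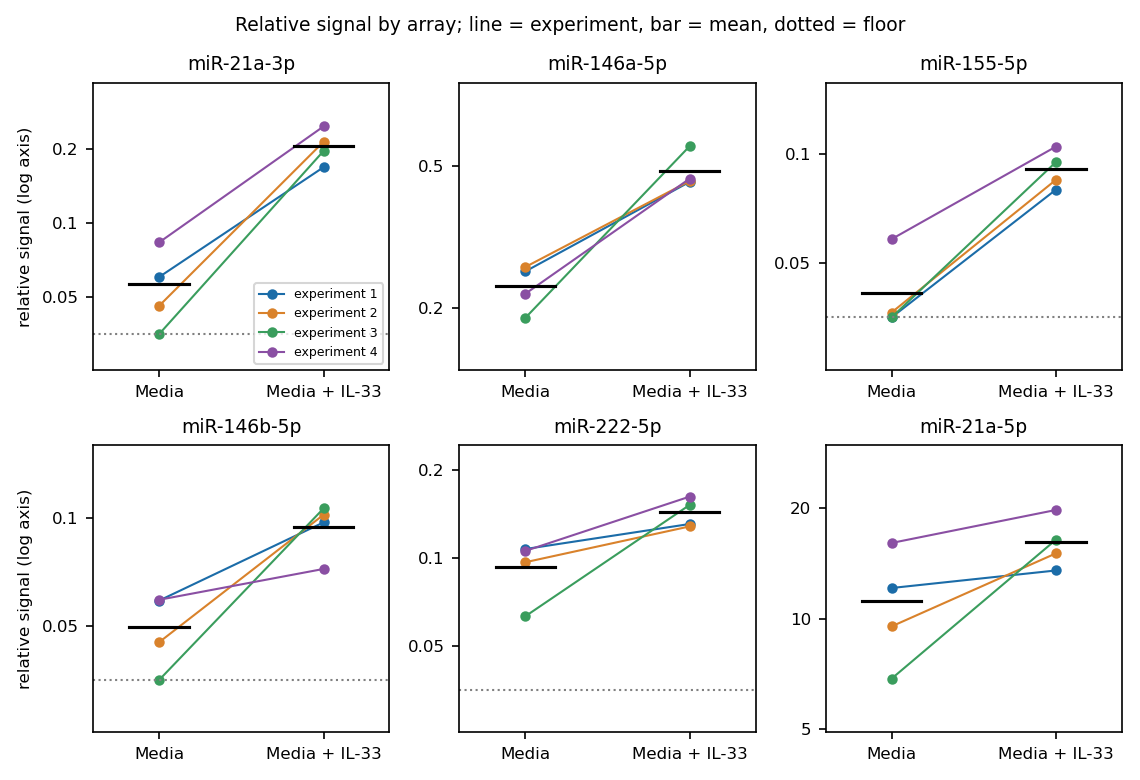
Relative signal (log axis) of the 4 called miRNAs, of miR-222-5p and of miR-21a-5p on each Media and Media + IL-33 array. Lines join the arrays of 1 experiment, black bars are means of 4 arrays and the dotted line is the floor of 0.0353. In every panel except that of miR-21a-5p all stimulated arrays lie above all Media arrays.

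The Media array of experiment 3 was low for most miRNAs. It alone gave the lowest of the 4 Media values for 156 of the 231 tested miRNAs, and the median log2 difference of all tested miRNAs in that experiment was 0.44, against −0.22, −0.06 and −0.03 in experiments 1, 2 and 4. The differences of miR-21a-3p were 1.48, 2.22, 2.47 and 1.57 in experiments 1 to 4, each above the median of its own experiment by more than 1. Those of miR-146a-5p were 0.83, 0.80, 1.60 and 1.07, and those of miR-155-5p were 1.18, 1.22, 1.43 and 0.85. The call of miR-146b-5p held in 3 of the 8 fits that leave out 1 medium array. It was lost without the Media array of experiment 2 or 3 or without the stimulated array of experiment 1, 2 or 3, with limma adjusted p up to 0.138.

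The arrays lay on 2 slides, each scanned at 1 time, and both slides held both groups. Slide 1 carried 3 Media and 2 Media_IL33 arrays and slide 2 carried 1 and 2. Within slide 1, miR-21a-3p differed by 2.10 and miR-146a-5p by 1.21 on the log2 scale (limma adjusted p = 0.0344 for each). There miR-155-5p had a difference of 1.25 (0.0634) and miR-146b-5p one of 0.95 (0.470). On slide 2 they were 1.65, 0.84, 1.22 and 0.76 in the same order, with limma adjusted p from 0.117 to 0.258. All 4 differences were above 0 on both slides, which follows from the groups not overlapping and is no separate support. Slide 2 has a single Media array, which is assumed to vary like the other groups. With slide as a block in the fit, 3 miRNAs passed and miR-146b-5p did not (limma adjusted p = 0.0612).

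Of the 18 miRNAs on the inflammatory list, 6 were tested, all 6 had a difference above 0 and 4 passed the test, with a median log2 difference of 1.01 against 0.02 over all 231 tested. The list was chosen with earlier results of these data known, so these counts are not independent support. Of its members, miR-21a-3p and miR-155-5p were detected on only 2 Media arrays and on all 4 stimulated ones. The other 12, among them miR-132-3p, miR-9-5p, miR-147-3p and miR-187-3p, were detected on no medium array. miR-212-3p, which shares a transcript with miR-132, had a log2 difference of 0.11 ± 0.21 (SE). Its Media values ran from 0.467 to 0.923 and its stimulated values from 0.653 to 0.922, so the groups overlapped.

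miR-21a-5p, the guide strand of the miR-21 hairpin and a repressor of Pdcd4, did not pass the test. It measured 12.1, 9.52, 6.86 and 16.1 in Media and 13.5, 15.1, 16.4 and 19.8 with IL-33. The stimulated array was the higher one in 4 of 4 experiments, but the groups overlapped, because the Media array of experiment 4 exceeded the stimulated arrays of experiments 1 and 2. The log2 difference was 0.59 ± 0.23 (SE, limma adjusted p = 0.480). Higher in 4 of 4 experiments were 14 of the 231 tested miRNAs (6.06%), and lower in 4 of 4 were 10 (4.33%).

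Because both strands of a hairpin are read on the same array, their ratio is free of shifts that scale a whole array. The 3p to 5p log2 ratio was tested for the 24 hairpins with both strands among the 231 miRNAs, and it changed for 2 (8.33%, limma adjusted p under 0.05), 1 in each direction. The level of a ratio also depends on the probes, so only its change is described. For miR-21a the ratio was −7.65, −7.69, −7.60 and −7.59 in Media and −6.33, −6.14, −6.39 and −6.33 with IL-33, a shift towards the 3p strand on every stimulated array. The change was 1.34 ± 0.14 (SE, limma adjusted p = 4.76e-06). On the Media array of experiment 3 the 3p strand was at the floor, so that ratio is a bound. With signals as measured it was −8.81 there and the change became 1.64 (limma adjusted p = 0.000225). The call depends on the background method. With normexp background correction and an offset of 50 the change was −0.37 (limma adjusted p = 0.449), and with no offset 0.08 (0.842).

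The miR-222 hairpin moved the opposite way. This miRNA and its neighbour miR-221 are known repressors of the cell-cycle inhibitor p27. The 3p to 5p log2 ratio was 2.52, 2.95, 3.02 and 2.92 in Media and 2.24, 2.27, 2.33 and 2.34 with IL-33, so each stimulated array was below each Media array. The change was −0.56 ± 0.12 (SE, limma adjusted p = 0.00466). Its 5p strand measured 0.107, 0.0967, 0.0631 and 0.106 in Media and 0.131, 0.128, 0.152 and 0.162 with IL-33, well above background on all 8 arrays. As a single miRNA it had a log2 difference of 0.65 ± 0.19 (SE) and missed the threshold (limma adjusted p = 0.179). The 3p strand, conventionally the guide, had a difference of 0.09 ± 0.17 (SE) and miR-221-3p one of 0.20 ± 0.19 (SE), with adjusted p of 1.00 for both by limma. Within slide 1 the change of the miR-21a ratio was 1.27 (limma adjusted p = 0.000911) and that of the miR-222 ratio −0.63 (0.0190). Within slide 2 they were 1.42 (0.0751) and −0.26 (0.345), from 1 Media array. In a fit on the 8 medium arrays alone the miR-222 change was −0.56 (limma adjusted p = 0.0494). With the authors' deposited table of intensities the miR-222 change was −0.42 (limma adjusted p = 0.158). With normexp background correction it was −0.0034 (0.962), and with no offset −0.17 (0.385).

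The miR-378a hairpin lies in an intron of Ppargc1b and is known to respond to IL-4 in macrophages. The change of its ratio was −2.87 ± 0.97 (SE), which missed the threshold (limma adjusted p = 0.0842). Its 5p strand varied widely between Media arrays, with values given below. Its 3p strand had a log2 difference of −0.17 ± 0.16 (SE). The other 21 hairpins had adjusted p of 0.373 or more by limma. Among them were miR-142a (change of −0.02 ± 0.10, SE), a haematopoietic miRNA, and miR-17 (0.08 ± 0.15, SE).

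**Figure D2:**
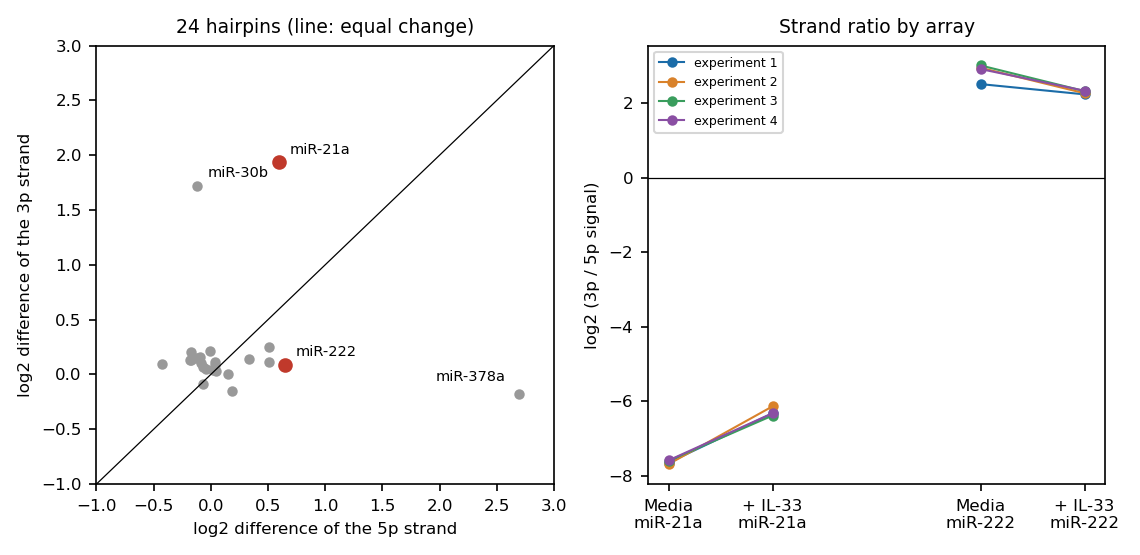
Left, the log2 difference with IL-33 of the 5p strand (x axis) against that of the 3p strand (y axis) for 24 hairpins, with the line of equal change and the 2 called hairpins in red. Right, the 3p to 5p log2 ratio on each array for miR-21a and miR-222, with lines joining experiments. The ratio of miR-21a rises from about −7.64 to −6.30 and that of miR-222 falls from 2.85 to 2.29, the group means.

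miRNAs with the same seed are expected to act on overlapping messenger RNAs, so their signals were also summed. Of the 231 tested miRNAs 170 had a RefSeq sequence, and 53 of these fell into 18 families of at least 2 members. Only the miR-146 family passed (1 of 18, 5.56%). Its sum was 0.312, 0.306, 0.223 and 0.279 in Media and 0.549, 0.556, 0.675 and 0.533 with IL-33, so the groups did not overlap. The sum rose from 0.280 ± 0.0406 to 0.579 ± 0.0653 (SD, n = 4 each), a log2 difference of 1.05 ± 0.17 (SE, limma adjusted p = 5.40e-08). Limma pooled the variance of all families fully, so every family has the same standard error, and the sum consists mostly of miR-146a-5p. Within slide 1 it was 1.17 (limma adjusted p = 3.19e-05). Within slide 2, where a single Media array is assumed to vary like the other groups, it was 0.82 (0.00609). The miR-221 and miR-222 3p family had a difference of 0.17 ± 0.17 (SE, limma adjusted p = 0.979), and the let-7 family, with 10 members, one of 0.02 ± 0.17 (SE).

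The cluster of miR-99b, let-7e and miR-125a, which lies within Spaca6 on chromosome 17, had 5 tested members, and 0 passed the test. All 5 differences were above 0, from 0.11 to 0.51, with a median of 0.39. miR-125a-5p, a seed relative of miR-125b-5p, measured 0.153, 0.144, 0.0936 and 0.195 in Media and 0.173, 0.200, 0.214 and 0.221 with IL-33. Its difference was 0.51 ± 0.18 (SE, limma adjusted p = 0.353) with the groups overlapping. miR-99b-5p measured 0.0639, 0.0717, 0.0405 and 0.0954 in Media and 0.0855, 0.0811, 0.0992 and 0.106 with IL-33, a difference of 0.51 ± 0.23 (SE, limma adjusted p = 0.780). For let-7e-5p the difference was 0.39 ± 0.19 (SE, limma adjusted p = 0.846). The lowest Media value of these 3 was again that of experiment 3.

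Lists outside the inflammatory one had 0 called members. The alternative activation list, of miRNAs reported in IL-4 treated or tissue-repair macrophages, had 9 tested members with a median log2 difference of 0.01. miR-511-3p, of the mannose receptor gene, was detected on no medium array, and let-7c-5p had a difference of 0.02 ± 0.15 (SE). The 5 tested miRNAs of macrophage and myeloid identity had a median of −0.07. miR-223-3p, a myeloid miRNA, ran from 0.341 to 0.610 in Media and from 0.336 to 0.459 with IL-33, and miR-142a-3p from 0.682 to 0.959 and from 0.708 to 0.857. Both were detected on all 8 arrays.

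The growth-associated miR-17-92 list had 11 tested members and a median of 0.02, with miR-17-5p at 0.03 ± 0.19 (SE) and miR-92a-3p at −0.06 ± 0.14 (SE). Medians were 0.02 for 9 let-7 members, −0.04 for 4 of miR-15 and miR-16, 0.00 for 5 of miR-23, miR-27 and miR-24, 0.03 for 3 of miR-29 and −0.01 for 5 of miR-30. The stress list gave miR-34a-5p, a p53 target, at 0.05 ± 0.17 (SE) and miR-210-3p, a hypoxia marker, at 0.09 ± 0.26 (SE). Of 31 miRNAs on the array that mark other cells or serum, 28 were detected on no medium array. Among them were miR-122-5p of liver, miR-451a of red cells, miR-126a-3p of endothelium, miR-143-3p and miR-145a-5p of fibroblasts and miR-124-3p of neurons. The summed relative signal of that list ran from 0.245 to 0.433 in Media and from 0.292 to 0.381 with IL-33. The 2 tested members were miR-199a-3p (−0.06 ± 0.21, SE) and the muscle miRNA miR-206-3p (−0.43 ± 0.20, SE, limma adjusted p = 0.780). The fibroblast marker miR-199a-3p was detected on all 8 arrays and was well above background on 2 Media and 4 Media_IL33 arrays. Of the other fibroblast markers, miR-214-3p was detected on 1 Media and 2 Media_IL33 arrays, and miR-143-3p and miR-145a-5p on no medium array. miR-206-3p was detected on 3 Media and 4 Media_IL33 arrays but was well above background on 0 of the 8 arrays. The other muscle markers, miR-1a-3p and miR-133a-3p, were detected on no medium array.

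**Figure D3:**
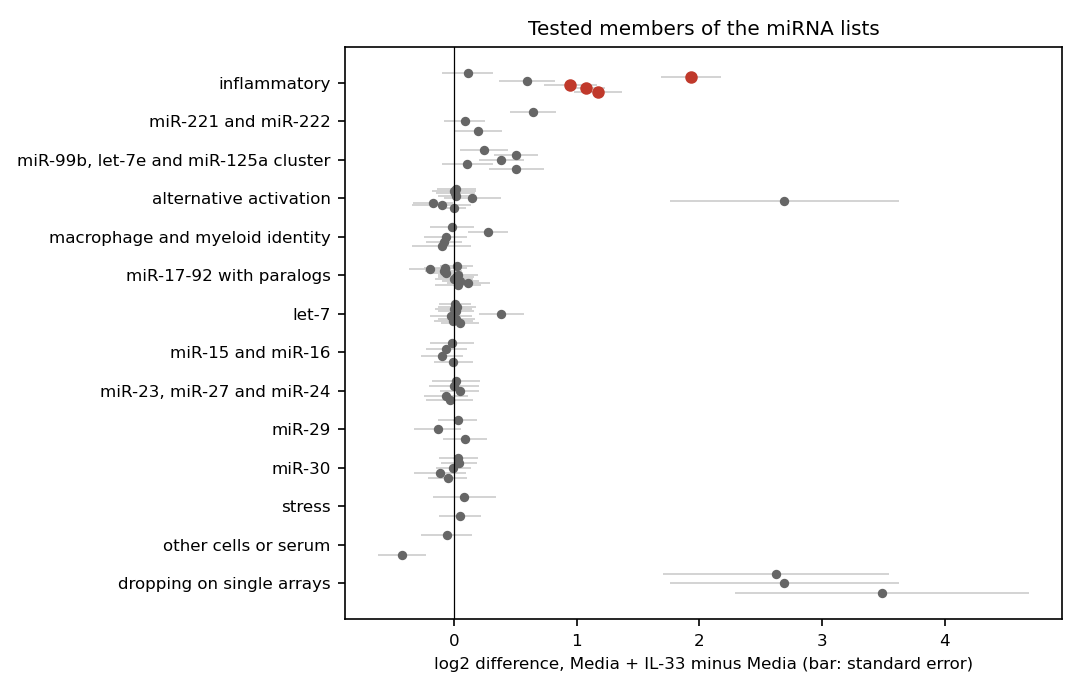
Log2 difference (Media + IL-33 minus Media, x axis) of each tested member of the 14 miRNA lists, with standard errors as bars and members past the threshold in red. The red points are confined to the inflammatory list, whose median is 1.01, while the medians of the lists from let-7 to miR-30 lie between −0.04 and 0.03.

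Across all 231 tested miRNAs the median log2 difference was 0.02, 130 differences were above 0 and 99 below, and 215 were smaller than 0.5 in size. The 95% confidence interval of limma lay within a 2-fold change either way for 191 miRNAs and within 1.5-fold for 155. For these a change beyond that size lies outside the interval, whereas smaller changes could not be resolved with 4 arrays a group. This does not hold for miRNAs at the floor in both groups, whose narrow interval is made by the floor. An example is miR-511-3p, with a difference of 0 ± 0.10 (SE) and no detection on a medium array. The intervals also take 1 spread for all 4 groups of the series. The median log2 range over the arrays of a group was 0.80 in Media against 0.33 to 0.50 in the others. Intervals for differences from Media may therefore be too narrow and these counts too high. Of the 10 miRNAs with the highest Media signals, 9 had differences between −0.12 and 0.03, and the exception was miR-21a-5p.

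**Figure D4:**
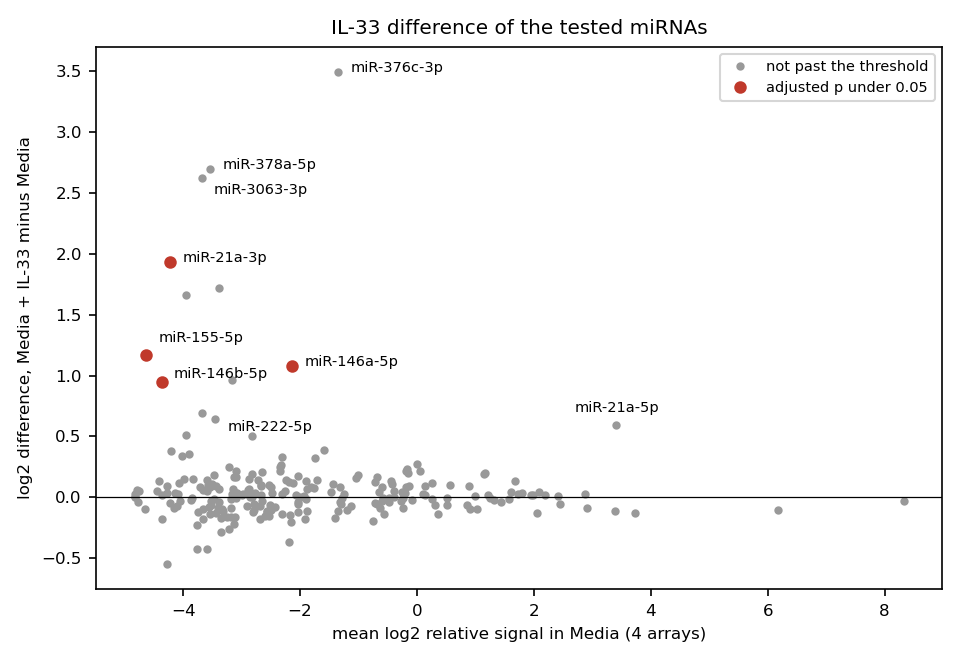
Log2 difference with IL-33 (y axis) against the mean log2 relative signal in Media (x axis) for the 231 tested miRNAs, each point 1 miRNA. The 4 called miRNAs are red, and miR-376c-3p, with the greatest difference of all at 3.49, is among those that did not pass.

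The greatest differences belonged to miRNAs that did not pass the test and whose values varied widely between Media arrays. Differences beyond 1 in size were found for 8 miRNAs, all higher with IL-33, of which 3 were called. All of them except miR-146a-5p were detected on only 2 of the 4 Media arrays, so they entered the test through groups other than Media. Their shared direction is therefore not independent of how they entered the test, and its cause was not tested. miR-376c-3p, from the imprinted Dlk1-Dio3 region, measured 0.0690, 5.35, 0.0353 and 1.80 in Media against 4.43, 5.05, 4.32 and 3.89 with IL-33. It was near the floor in experiments 1 and 3, while in experiment 2 the Media array was the higher of the pair. The difference was 3.49 ± 1.20 (SE, limma adjusted p = 0.353). Without the Media array of experiment 2 it became 4.75 (limma adjusted p = 0.0187).

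miR-378a-5p had the same order of Media arrays, at the floor in experiments 1 and 3, at 0.509 in experiment 2 and at 0.0875 in experiment 4. With IL-33 it measured 0.246, 0.984, 1.02 and 0.394. The difference was 2.69 ± 0.93 (SE, limma adjusted p = 0.353), and without the Media array of experiment 2 it was 3.55 (limma adjusted p = 0.0448). miR-3063-3p had a difference of 2.62 ± 0.92 (SE, limma adjusted p = 0.353) with the same 2 Media arrays at the floor. miR-302c-3p (1.66 ± 0.66, SE) and miR-30b-3p (1.72 ± 0.79, SE) also had their lowest Media values in experiments 1 and 3 and their highest in experiment 2, with limma adjusted p of 0.501 and 0.780.

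**Figure D5:**
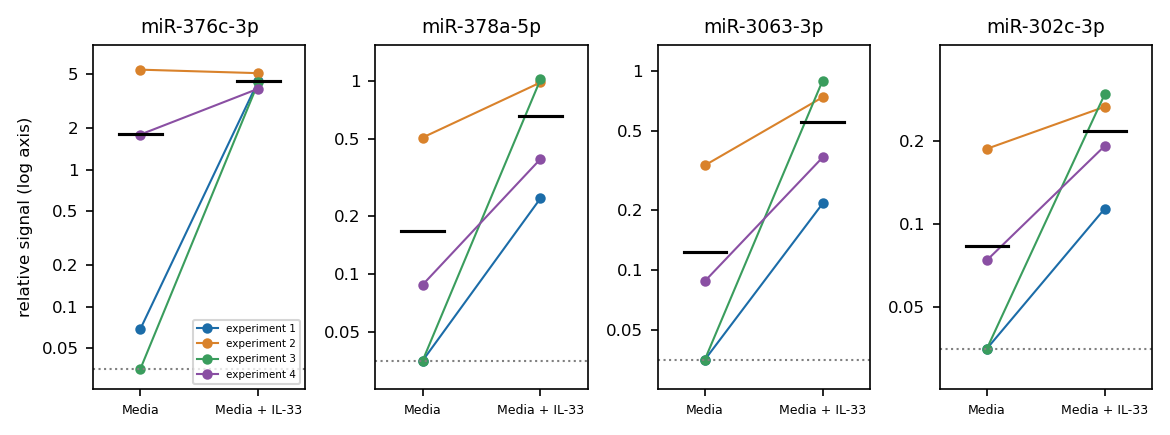
Relative signal (log axis) of 4 miRNAs on each Media and Media + IL-33 array, with lines joining experiments, black bars for means of 4 arrays and a dotted line at the floor. The Media arrays of experiments 1 and 3 lie between 0.0353 and 0.0690, and those of experiment 2 are the highest Media values.

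The spread between repeat cultures was itself unequal. The range over 4 arrays exceeded 3 on the log2 scale for 19 tested miRNAs in Media and for 0 in Media_IL33, and its median was 0.80 against 0.39. Of the 19 miRNAs, 16 were lowest on the Media array of experiment 1, 1 was lowest on that of experiment 3, and 2 were at the floor on both. Members of the miR-466, miR-467 and miR-669 group, most of which are encoded in an intron of Sfmbt2, made up 12 of the 19. These are 12 of the 32 tested miRNAs with such names, and all 12 were lowest on the Media array of experiment 1 and highest on that of experiment 3. miR-467b-3p measured 0.0588, 0.381, 1.83 and 0.195 in Media and 0.431, 0.375, 0.406 and 0.298 with IL-33. Its log2 difference was 0.32, and those of all 12 lay between −0.03 and 0.32. The median correlation of an array with others of its group was 0.874 to 0.968 in Media and 0.988 to 0.991 in Media_IL33. Without the Media arrays of experiments 1 and 3 and 1 array of another group that stood apart, miR-21a-3p and miR-146a-5p passed the threshold, with miR-155-5p at 0.98 (limma adjusted p = 0.0629). In that setting with experiments as a block, chosen after the data were seen, 3 passed and miR-155-5p was one of them (1.02, limma adjusted p = 0.0185).

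The same stimulation was given to cells grown with IL-4 and IL-13 at 10 ng/ml, which have their own unstimulated arrays. There 4 of 231 miRNAs passed (1.73%), namely miR-155-5p at 1.86 ± 0.19 (SE), miR-21a-3p at 1.43 ± 0.24 (SE), miR-146a-5p at 0.90 ± 0.16 (SE) and miR-222-5p at 0.82 ± 0.19 (SE), all higher. miR-146b-5p had a difference of 0.42 ± 0.22 (SE) there. All stimulated Th2-grown arrays lay on slide 2, and the unstimulated ones of experiments 1 to 3 on slide 1. Slide and IL-33 are thus largely confounded in these cells, which also limits the comparison of both responses. The test of the difference between both responses called 0 of 231 miRNAs (0%, smallest adjusted p 0.995, limma), with 5 at an unadjusted p under 0.05. The difference in response, Th2-grown minus medium-grown, was 0.69 ± 0.27 (SE) for miR-155-5p, −0.50 ± 0.35 (SE) for miR-21a-3p, −0.17 ± 0.22 (SE) for miR-146a-5p and −0.52 ± 0.31 (SE) for miR-146b-5p. None of these passed the threshold, which does not show that the responses are alike.

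The calls of dim miRNAs changed with the background method. Normexp correction of the mean spot signal, with an offset of 50 added to every spot, replaced the scanner's own subtraction. The added constant shrinks the folds of dim probes by construction. Only miR-146a-5p passed, and the log2 difference of miR-21a-3p was 0.24 (limma adjusted p = 0.318). miR-155-5p had a difference of 0.12 (0.437) and miR-146b-5p one of 0.09 (0.600). The change of the miR-21a ratio was −0.37 under that setting (limma adjusted p = 0.449), opposite in sign. With normexp and no offset, a setting chosen after the data were seen, miR-21a-3p passed at 0.67 (limma adjusted p = 0.0166) and miR-146a-5p at 0.81 (0.00173). There miR-155-5p had a difference of 0.39 (0.275), miR-146b-5p one of 0.32 (0.603) and the miR-21a ratio a change of 0.08 (0.842).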

How the data were processed

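One Cy3 Agilent mouse miRNA array was hybridised per sample. The deposited scanner files, written by Agilent Feature Extraction 10.7.3.1 per the file headers, hold spot intensities with background removed and no scaling across arrays. A second deposited table of intensities, for which the submitters' processing notes name Partek 6.6 and RMA, served as an alternative. Control spots and spots marked as outliers (2108 to 3929 of 49880 spots on the 8 medium arrays) were left out, spots were averaged per probe and probes summed per miRNA. Signals were scaled to the 75th percentile of the 178 miRNAs that all 16 arrays detected, floored at 0.0353 (1st percentile of detected signals) and log2 transformed. Well above background means so marked by the scanner software on 50% or more of a probe's spots.

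Differences were tested with limma 3.58.1 (R 4.3.3) on all 16 arrays, with 12 residual degrees of freedom and Benjamini-Hochberg adjustment over 231 miRNAs, 24 hairpins or 18 seed families. Procedures were tested on simulated data in which a miRNA had the same spread in all groups, unlike the arrays. Replicate numbers mark the shared experiments, per the labels. Deviations of same-numbered arrays correlated at −0.29, 0.52, −0.14 and 0.60 in experiments 1 to 4. Named miRNAs are all called ones, the 20 smallest p-values, tested members of the inflammatory, miR-221/222 and miR-99b lists, partner strands and seed relatives, miR-223-3p, miR-378a-3p, and the 10 highest in Media, with at most 3 from other lists. Members of the wide-spread group were singled out after their values were seen. The comparison and lists were chosen with earlier results of these data known. The number of arrays limits the precision.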

Additional observations from a re-analysis of the deposited data

Results flagged for a closer look

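A total of 5 values stood far from the other 3 arrays of their group, their gap to the nearest array, as a share of the group's whole range, being above Dixon's 95% critical value for 4 samples, out of 78 groups examined. Chance gives about 1 in 20 such groups. On the log2 relative signal scale, miR-155-5p was at −4.10 on the Media array of experiment 4, against −4.82 to −4.78 on the others. Of those, 2 were set to the floor, and without it the 4 values ran from −5.80 to −4.10 with a gap of 0.40 of the range, which is below the critical value. miR-206-3p was at −4.02 on the Media array of experiment 1, against −3.67 to −3.65. miR-212-3p was at −1.10 on the Media array of experiment 3, against −0.26 to −0.12. With IL-33, miR-146a-5p was at −0.81 in experiment 3, against −1.15 to −1.12, and miR-1231-5p was at −3.97 in experiment 1, against −3.62 to −3.55. Causes were not tested.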

How the results depend on the processing

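The count of called miRNAs (4) became 2 within slide 1, 0 within slide 2, 2 without Media arrays 1 and 3 and Th2_IL33 array 2, 1 under normexp with an offset of 50, 2 under normexp with no offset and 1 when only miRNAs detected on all 16 arrays were tested. Leaving out single arrays gave 3 to 5. The count of hairpins (2) became 0 within slide 2, 0 under normexp with either offset, 1 with the authors' table, 4 of 418 with no filter on dim miRNAs and 1 over miRNAs detected on all 16 arrays, and 2 to 3 without single arrays. The family count (1) became 0 over miRNAs detected on all arrays, where the miR-146 family was no longer formed. The count of differing responses (0) became 1, miR-155-5p, with array weights. The miR-21a ratio change turned to −0.37 under normexp with the offset. The offset shrinks dim folds by construction, and with normexp and no offset the change was 0.08 (limma adjusted p = 0.842). The cause was not tested. With the replicate block, which pairs arrays by experiment, the counts stayed at 4 miRNAs, 2 hairpins, 1 family and 0 differing responses, and no call changed. Within slide 1 the difference between responses gave no value, since Th2_IL33 lay on slide 2 only.

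Over the alternatives, adjusted p ran up to 0.318 for miR-21a-3p, 0.258 for miR-146a-5p and 0.437 for miR-155-5p. It reached 0.603 for miR-146b-5p, which passed in 8 of 26. miR-222-5p passed with slide and replicate blocks (0.0413), the brightest probe (0.00899) and the scanner's total gene signal (0.0254), and miR-125a-3p with the brightest probe (0.0291). Of 1040 values of single items under alternatives, 1001 stayed on the same side of the threshold, 32 lost the call, 6 gained a call and 1 reversed. Among the first, 76 uncalled differences of 17 miRNAs changed sign, all between −0.43 and 0.10. Most of the 1040 values belong to items not called in the main fit, so the share that stayed says little about the calls. Calls were kept in 24 of 26 alternatives for miR-21a-3p, 26 of 27 for miR-146a-5p and 21 of 26 for miR-155-5p. The ratio calls were kept in 24 of 27 for miR-21a and 24 of 28 for miR-222, and the miR-146 family in 26 of 26.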
